A study of Mus musculus with 6 samples.

Results

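Integrins are cell surface receptors made of an alpha and a beta chain, and laminins, type IV collagens, nidogens and heparan sulfate proteoglycans build the basement membranes that many of them bind. The genes described here were taken by symbol: the numbered integrin alpha and beta chains, Itgal, Itgam, Itgav and Itgax, the laminin alpha, beta and gamma chains, the type IV collagen chains, and Nid1, Nid2, Hspg2, Col15a1, Col18a1 and Agrn. This gave 47 of the 24346 symbols measured, with 24 integrin chains, 11 laminin chains, 6 type IV collagen chains and 6 other genes. Laminins assemble as trimers of an alpha, a beta and a gamma chain and form a sheet, type IV collagens form a network of their own, and nidogens and perlecan link both. Cartilage matrix itself holds no continuous basement membrane. Chondrocytes and fibroblasts bind fibrillar collagen and fibronectin through integrins that contain the beta1 chain, while blood vessels, muscle fibres and nerves bring basement membranes of their own.

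RNA was sequenced from dissected mandibular condylar cartilage, the growth cartilage of the jaw joint. The 3 mutant libraries came from mice in which Ihh, the gene for Indian hedgehog, had been deleted in neural crest cells of the face and skull, and the 3 reference libraries came from mice labelled fl/fl, the usual notation for a floxed gene. The series text says that Cre, Tomato and Ihh expression was checked in mutants. The labels give neither the Cre driver nor age or sex. Nothing in them ties each library to its own animal, so p-values measure the spread between these libraries, which may be technical. Ihh itself measured 2.18, 2.33 and 2.66 FPKM in mutants and 3.73, 2.51 and 3.74 FPKM in fl/fl, and its target Gli1 averaged 0.516 ± 0.323 FPKM in mutants and 8.70 ± 1.39 FPKM in fl/fl (SD, n = 3 each). FPKM are fragments scaled to transcript length and to the fragments of the library, so levels compare between genes.

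The spacing of low FPKM values gave the number of fragments behind 41 of the 47 genes, as the smallest whole numbers that fitted within 0.01 of a fragment. Transcript lengths put the libraries at an estimated 1380000, 1660000 and 1460000 fragments in mutants 1, 2 and 3 and 1380000, 1370000 and 1840000 fragments in fl/fl 1, 2 and 3. A gene at 1 FPKM therefore rests on a handful of fragments. As a yardstick for low values, 1102 olfactory receptor genes, most of which cartilage should not use, were ranked in each library, and their 90th percentile was taken. It was between 6.87 and 8.58 FPKM in mutants and between 6.49 and 8.45 FPKM in fl/fl. In every library 11 of the 47 genes lay above it and 23 below it, Itga1 and Itga2 among the latter. Itga11 lay below it in each mutant and above it in each fl/fl library. At the same FPKM a longer transcript rests on more fragments, so a gene below the yardstick is not thereby shown to be silent. The X-inactivation transcript Xist measured 0.577 to 0.984 FPKM in mutants, against 29.5, 29.2 and 0.608 FPKM in fl/fl 1, 2 and 3, so fl/fl 3 was the only fl/fl library without it. Eif2s3y, a gene of the Y chromosome, stood at 47.3, 47.4 and 38.4 FPKM in mutants 1, 2 and 3, against 0.89, 0 and 42.1 FPKM in fl/fl 1, 2 and 3. By these genes all mutants and fl/fl 3 were male and fl/fl 1 and fl/fl 2 female, so sex is partly confounded with genotype, and fl/fl 3 is the only fl/fl library of the same sex as the mutants. The cell type mix also differed: 20 skeletal muscle genes summed to 18480 to 34830 FPKM in mutants and 4261 to 10370 FPKM in fl/fl, 18 endothelial genes to 442 to 516 FPKM in mutants and 175 to 270 FPKM in fl/fl, and 13 chondrocyte genes to 228 to 271 FPKM in mutants and 488 to 562 FPKM in fl/fl. In bulk cartilage, fewer cells of a type and less RNA per cell cannot be told apart.

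The comparison of mutant with fl/fl cartilage asked which of these transcripts differed after loss of Ihh from the neural crest. Of the 47 genes, 45 reached 1 FPKM in at least 3 libraries and were tested, and Col4a6 and Itgax did not. The collagen receptor chain Itga11 fell in mutants and no gene of the set rose, by limma with Benjamini-Hochberg adjustment over 18715 genes and a threshold of 0.05. Over all genes tested, 1.24% passed in either direction and 0.465% were lower, so 1 of 45 is close to the background. At an unadjusted p below 0.05 there were 5 of the 45, namely Itga1, Col4a1, Col4a2 and Lamb2 higher and Itga11 lower, or 11.1% of the set. All genes gave 14.1% in either direction, 7.94% higher and 6.11% lower. The groups did not overlap in 13 of the 45 (28.9%), 9 of them higher and 4 lower in mutants, where all genes gave 19.2% in either direction, 9.77% higher and 9.4% lower. The median log2 fold change was 0.18 over the 45 genes and 0.00 over all genes tested, on the scale of log2(FPKM + 1), which understates the change of low genes.

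Itga11 encodes the alpha11 chain, which pairs with beta1 as a receptor for fibrillar collagen on mesenchymal cells such as fibroblasts and periosteal cells. It measured 5.30, 6.86 and 4.19 FPKM in mutants 1, 2 and 3, against 14.1, 17.6 and 18.2 FPKM in fl/fl 1, 2 and 3. All mutant libraries were lower than all fl/fl libraries, with a wide gap between the groups. The values rest on 36, 56 and 30 fragments in mutants and 96, 119 and 165 fragments in fl/fl, a scaled mutant to fl/fl ratio of 0.328 with an exact 95% interval from 0.265 to 0.403 that covers counting error only. The log2 fold change was -1.47 ± 0.24 (SE, limma adjusted p = 0.0311, lower in 3 of 3 mutant libraries than in any fl/fl library). The gene lies on chromosome 9 from 62677826 to 62783982 on the plus strand (mm10, GENCODE M21), and none of its exons overlaps an exon of the opposite strand.

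The call rested on few libraries. It was kept without mutant 3 (limma adjusted p = 0.0436) and missed the threshold without mutant 1 (0.117), mutant 2 (0.0555), fl/fl 1 (0.0877), fl/fl 2 (0.103) or fl/fl 3 (0.0698). The size of the difference stayed between -1.62 and -1.32 on the log2 scale over all 15 alternatives tried. Other filters, other moderation and the replicate block cannot change it, and those fits gave the same -1.47. As the groups did not overlap, leaving out libraries could not reverse it. With fl/fl 1 and fl/fl 2 left out the log2 fold change was -1.60, and with Xist as a covariate it was -1.60 (limma adjusted p = 0.196). Xist sets fl/fl 1 and fl/fl 2 apart from all other libraries, so both fits in effect compare the mutants with fl/fl 3 alone. They are not separate checks. The 14 genes of the fibroblast and perichondrium list summed to 5113 to 10340 FPKM in mutants and 6919 to 9417 FPKM in fl/fl, with none at 0. Of them 1 was called higher and 3 lower, or 28.6%, where all genes gave 1.24%. Log2 fold changes were positive for 7 and negative for 7. The sum hides such differences: Col1a1 measured 1583 to 3838 FPKM in mutants and 1686 to 2429 FPKM in fl/fl, and Postn 204 to 384 FPKM in mutants and 834 to 1068 FPKM in fl/fl. Of the 13 tested chondrocyte genes 5 were called lower (38.5%) and none higher, with Matn1 at 0 in at least 1 library. The part of either cell type in the Itga11 result was not tested.

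The stretch before the RefSeq start of Itga11 is shown because this gene alone of the 45 passed the test. In human mesenchymal cells its promoter is known to use Sp and Ets factors. The 250 bases at chr9:62677605-62677854 (RefSeq, GRCm38.p6, plus strand) read as follows, with the match to the Ets core in capitals, and the last 29 of them already belong to the first exon in GENCODE.
Itga11: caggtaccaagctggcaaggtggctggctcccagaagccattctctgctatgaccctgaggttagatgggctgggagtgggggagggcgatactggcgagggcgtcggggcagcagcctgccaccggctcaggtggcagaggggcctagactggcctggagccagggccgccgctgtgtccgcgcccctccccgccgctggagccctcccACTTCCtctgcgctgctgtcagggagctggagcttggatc
The Ets core GGAAGT, searched on both strands, was found once, on the reverse strand, and in 19.7% of 32851 windows of this length. The window holds no GGGCGG (GC box, in 32.7% of windows), no CCAAT (in 33.8%) and no GACCACCCA (the Gli consensus, in 0.225%). GC content was 68.4%, where the median window has 52.4%.

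Itga11 is 1 of 4 alpha chains that bind collagen, and the others are given here beside it. Itga10, the collagen receptor of chondrocytes, measured 4.61, 9.71 and 7.51 FPKM in mutants and 9.64, 11.6 and 7.79 FPKM in fl/fl, and these ranges overlap. Itga1, which prefers type IV and other collagens and is common on vessels and smooth muscle, measured 6.76, 3.21 and 4.91 FPKM in mutants and 2.17, 1.94 and 2.81 FPKM in fl/fl, with every mutant above every fl/fl library. It did not pass the test. Itga2, the collagen receptor of platelets and epithelia, had at most 3.49 FPKM in any library.

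Of the summed FPKM of these 4 chains, Itga11 held 29.7%, 33.2% and 24.7% in mutants 1, 2 and 3 and 52.0%, 50.9% and 61.6% in fl/fl 1, 2 and 3. Itga1 held 15.6% to 37.8% in mutants and 5.60% to 9.48% in fl/fl. Itga11 was thus the most abundant of the 4 in each fl/fl library and in none of the mutants, where Itga1 led in mutant 1 and Itga10 in mutants 2 and 3. The sum of the 4 was 17.9, 20.6 and 16.9 FPKM in mutants and 27.2, 34.7 and 29.6 FPKM in fl/fl. These shares are a description, and were not tested.

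**Figure D1:**
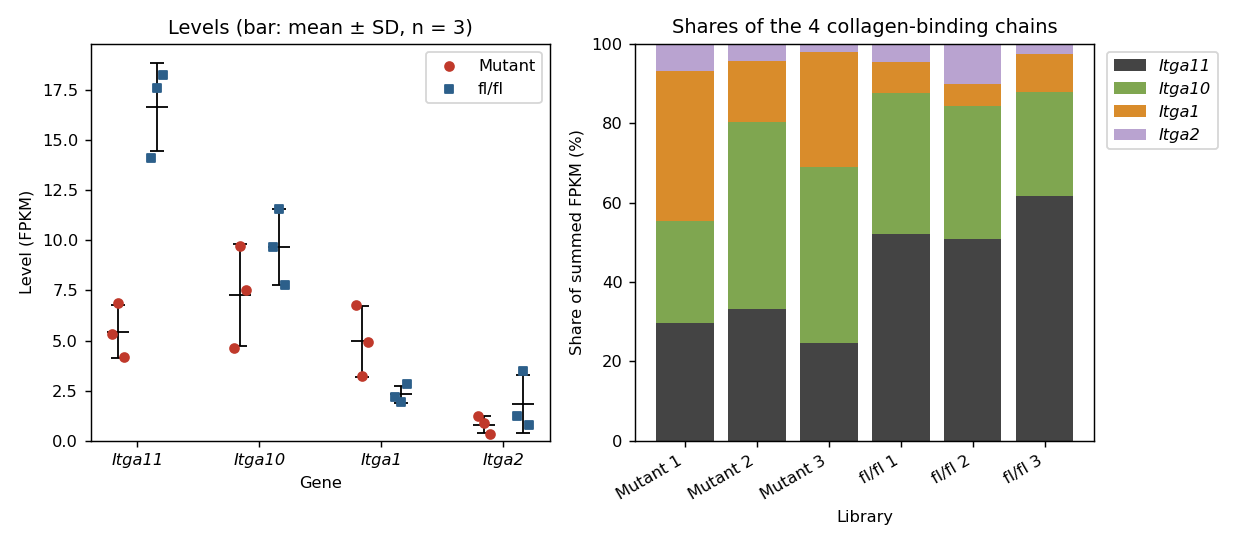
Collagen-binding integrin alpha chains. Left, level in FPKM (linear axis) of each gene in 3 Mutant and 3 fl/fl libraries, with mean and SD; right, the share in percent of each chain in their summed FPKM, per library. Itga11 lies between 4.19 and 6.86 FPKM in mutants and between 14.1 and 18.2 FPKM in fl/fl, and Itga1 takes a larger share in each mutant than in any fl/fl library.

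Among the beta chains, Itgb1, the common partner of the collagen, laminin and fibronectin receptors, was the most abundant integrin transcript in every library. It measured 96.0, 93.4 and 93.5 FPKM in mutants and 100, 108.7 and 120.1 FPKM in fl/fl. The groups did not overlap, yet the distance was small (log2 fold change -0.21 ± 0.16, limma adjusted p = 0.674). It made up 44.3% to 61.9% of all beta chain FPKM in mutants and 51.5% to 59.2% in fl/fl. Next came Itgb5, a partner of alpha v for vitronectin, with 27.7, 78.4 and 65.3 FPKM in mutants and 64.6, 46.0 and 92.7 FPKM in fl/fl, a spread within each group that exceeded the distance between their means.

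Itgb3, which pairs with alpha v on osteoclasts and with Itga2b on platelets, measured 9.26, 15.8 and 4.98 FPKM in mutants 1, 2 and 3 and 8.37, 9.55 and 7.97 FPKM in fl/fl 1, 2 and 3. Within each group its order matched that of 9 osteoclast genes, which summed to 1370, 2066 and 462 FPKM in mutants 1, 2 and 3 and to 728, 1406 and 414 FPKM in fl/fl 1, 2 and 3. This match was noticed after the values were seen. Itgb6, an alpha v partner of epithelia that activates latent TGF-beta, measured 12.9, 6.02 and 8.50 FPKM in mutants and 6.49, 7.93 and 5.57 FPKM in fl/fl. The 12 epithelial genes beside it summed to 28.2 to 38.4 FPKM in mutants and 19.2 to 32.8 FPKM in fl/fl, with Krt5, Krt14, Krt15 and Perp at 0 in at least 1 library.

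Of the chains of the fibronectin and vitronectin receptors, Itga5 measured 18.9, 21.6 and 29.5 FPKM in mutants and 18.4, 12.97 and 18.3 FPKM in fl/fl. Itgav, the alpha v chain, measured 9.57, 10.7 and 8.10 FPKM in mutants and 14.9, 16.3 and 10.7 FPKM in fl/fl. The mutant libraries lay just above all fl/fl libraries for Itga5 and just below them for Itgav, and neither passed the test. Itga8, a mesenchymal receptor for nephronectin, measured 0.625 to 2.01 FPKM in mutants and 1.22 to 3.37 FPKM in fl/fl.

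The laminin-binding chains Itga3, Itga6 and Itga7 all overlapped between the groups. Itga7, the laminin receptor of muscle fibres, measured 13.5, 10.2 and 12.3 FPKM in mutants and 11.5, 5.14 and 10.4 FPKM in fl/fl. Itga6 measured 7.95 to 12.5 FPKM in mutants and 6.23 to 12.1 FPKM in fl/fl, and Itga3 had at most 5.07 FPKM. Itgb4, the partner of Itga6 in epithelia and Schwann cells, measured 3.98, 2.65 and 3.30 FPKM in mutants and 1.29, 2.35 and 2.63 FPKM in fl/fl.

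The integrins of blood cells were low. Itgal, Itgam and Itgax, the alpha chains of the leukocyte integrins, rested on 36, 44 and 17 fragments in all mutants together and on 61, 40 and 16 fragments in all fl/fl libraries. Their partner Itgb2 had 7, 26 and 5 fragments in mutants 1, 2 and 3 and 14, 15 and 15 fragments in fl/fl, and Itgb7, a chain of lymphocytes, had 6, 30 and 7 fragments in mutants and 9, 10 and 4 fragments in fl/fl. Mutant 2 was the highest library for both. It was also the highest for the sum of 16 macrophage and leukocyte genes, at 685, 1052 and 280 FPKM in mutants 1, 2 and 3 and 261 to 331 FPKM in fl/fl. Such a sum follows its most abundant genes. Ptprc, a gene of that list, measured 4.29, 4.46 and 2.79 FPKM in mutants and 3.31, 4.65 and 4.29 FPKM in fl/fl, so mutant 2 was not its highest library. The other genes of the list are not given singly. The part of leukocytes in the Itgb2 and Itgb7 values was not tested. Itga4 and Itga9, which bind fibronectin variants, VCAM and tenascin, measured 3.03 to 4.63 FPKM in mutants and 3.71 to 7.32 FPKM in fl/fl. Itga2b, the platelet chain, had 12, 12 and 13 fragments in mutants and 7, 1 and 13 fragments in fl/fl. Scaled to the libraries, these were 2.59, 2.15 and 2.66 FPKM in mutants and 1.51, 0.217 and 2.10 FPKM in fl/fl. Every mutant thus lay above every fl/fl library, mutant 2 only just, and the difference did not pass the test. The 10 platelet genes summed to 37.9 to 81.7 FPKM in mutants and 54.2 to 66.6 FPKM in fl/fl, with 6 of them at 0 in at least 1 library. The low-level chain Itgb8 measured 1.37 to 1.81 FPKM in mutants and 0.543 to 2.18 FPKM in fl/fl.

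**Figure D2:**
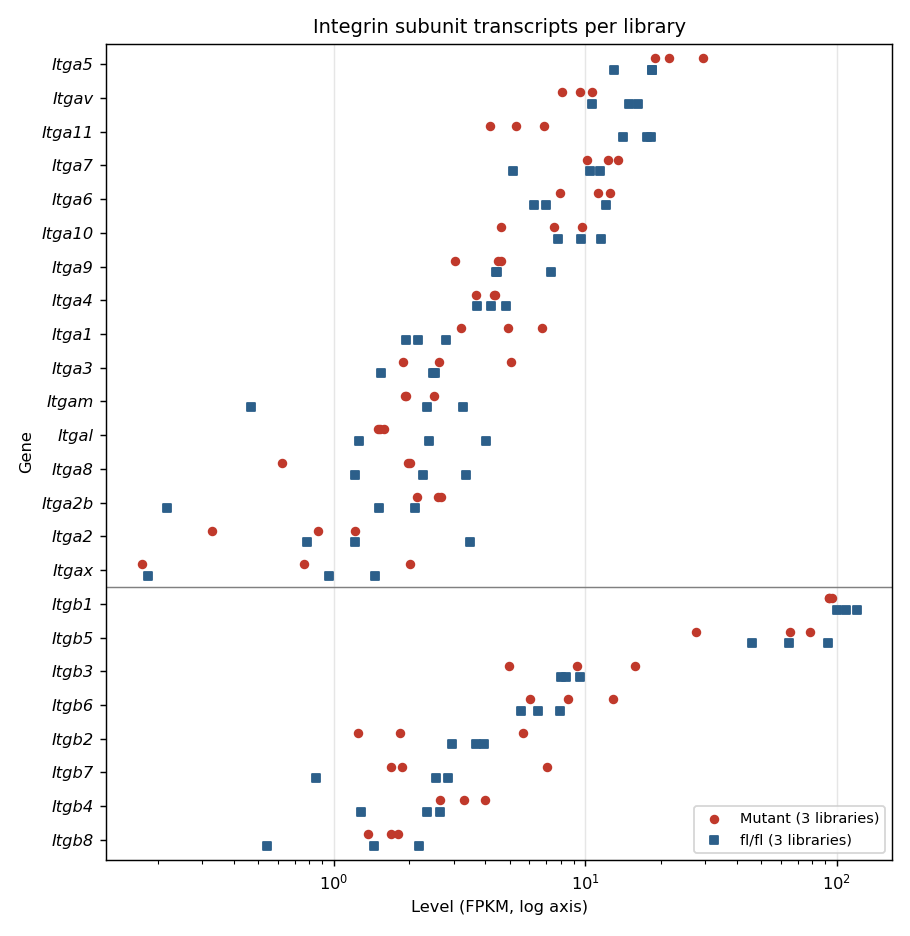
Integrin alpha chains (above the line) and beta chains (below it), ordered by mean. The horizontal log axis gives the level in FPKM, with 3 Mutant and 3 fl/fl libraries per gene as points. Itgb1 lies between 93.4 and 120.1 FPKM in all libraries, and the mutant points of Itga11, at 4.19 to 6.86 FPKM, lie below all its fl/fl points.

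Of the network-forming type IV collagens, the alpha1 and alpha2 chains, which build the form found in nearly all basement membranes, made up 92.0% to 94.0% of the family's FPKM in mutants and 83.7% to 93.8% in fl/fl. Col4a1 measured 68.1, 82.8 and 78.6 FPKM in mutants and 42.7, 37.9 and 73.3 FPKM in fl/fl 1, 2 and 3, so that fl/fl 3 reached the mutant range. Col4a2 measured 38.4, 38.8 and 47.6 FPKM in mutants and 24.8, 20.5 and 31.3 FPKM in fl/fl, with no overlap. The log2 fold changes were 0.62 ± 0.26 for Col4a1 (limma adjusted p = 0.314) and 0.70 ± 0.21 for Col4a2 (limma adjusted p = 0.166). Neither passed the test.

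Both distances were smaller against fl/fl 3 alone, the fl/fl library without Xist. With fl/fl 1 and fl/fl 2 left out, the log2 fold change was 0.06 for Col4a1 and 0.40 for Col4a2, and with Xist as a covariate it was 0.07 and 0.40. Both fits in effect make the same comparison with fl/fl 3, as Xist sets fl/fl 1 and fl/fl 2 apart. Without fl/fl 3 the values were 0.91 and 0.85 (limma adjusted p of 0.0806 and 0.121). Beside them, all 18 endothelial genes tested had a positive log2 fold change and 3 were called higher (16.7%), where all genes gave 0.775% higher. Of 11 mural cell genes tested, 8 had a positive and 3 a negative log2 fold change. Of these 0 were called higher and 1 was called lower (9.09%), where all genes gave 0.465% lower. The 12 mural genes in the files summed to 197 to 229 FPKM in mutants and 236 to 274 FPKM in fl/fl, a sum that follows its most abundant genes. No endothelial, mural or skeletal muscle gene of the lists was at 0 in any library. The part of vessels or muscle in the Col4a1 and Col4a2 values was not tested.

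Col4a1 and Col4a2 are transcribed in opposite directions from a common start region on chromosome 8. The ratio of Col4a1 to Col4a2 was 1.77, 2.13 and 1.65 in mutants and 1.72, 1.85 and 2.35 in fl/fl, and a link to the common start was not tested. The annotated starts of both genes, at 11312826 on the minus strand for Col4a1 and at 11312805 on the plus strand for Col4a2, lie 21 bases apart, so that the first exons overlap by 22 bases. The overlap at chr8:11312805-11312826 (RefSeq, GRCm38.p6) is shown on each strand because both genes are transcribed through it.
Col4a2 strand: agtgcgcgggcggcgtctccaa
Col4a1 strand: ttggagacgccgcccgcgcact
These libraries do not keep the strand, so fragments within the 22 bases cannot be told apart. Of the 47 genes, 14 have an exon that overlaps an exon of the opposite strand, among them Itga4 (1124 bases), Itgav (634), Lama2 (631) and Nid2 (437).

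The other type IV collagen pairs also start head to head, 72 bases apart for Col4a3 and Col4a4 on chromosome 1 and 1309 bases apart for Col4a5 and Col4a6 on the X chromosome. Col4a3, Col4a4 and Col4a5, chains of the basement membranes of kidney, lung, eye and ear, measured 1.23 to 5.34 FPKM in mutants and 1.28 to 5.42 FPKM in fl/fl. Col4a6 rested on 1, 2 and 2 fragments in mutants and 2, 3 and 2 in fl/fl, so no difference was detectable at this depth.

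Among the laminin alpha chains, Lama4, of vessels, fat and nerve, was the most abundant in every library, with 15.3, 11.9 and 12.3 FPKM in mutants and 12.4, 10.3 and 11.6 FPKM in fl/fl. It made up 48.96% to 56.2% of alpha chain FPKM in mutants and 52.4% to 58.5% in fl/fl. Lama2, the chain of muscle and Schwann cell basement membranes, followed with 7.84, 6.34 and 6.25 FPKM in mutants and 5.86, 3.17 and 7.53 FPKM in fl/fl. Beside these chains, 10 adipocyte genes summed to 502 to 966 FPKM in mutants and 214 to 491 FPKM in fl/fl, with Cfd and Retn at 0 in at least 1 library. This sum follows its most abundant genes. Of the 10, 8 had a positive and 2 a negative log2 fold change, and 0 were called. Adipoq, a gene of that list, measured 16.3, 3.96 and 3.22 FPKM in mutants and 0.679, 1.37 and 10.2 FPKM in fl/fl, and these ranges overlap. The part of adipocytes in the laminin values was not tested. Lama5, a chain of mature vessels and epithelia, was low at 1.496, 2.59 and 2.71 FPKM in mutants and 1.24, 1.19 and 0.935 FPKM in fl/fl. Its mutant libraries were all above the fl/fl libraries, on 120 fragments in mutants and 59 in fl/fl, and the difference did not pass the test. Lama1 and Lama3, chains of embryonic and epithelial membranes, stayed at or below 2.26 FPKM in all libraries.

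Of the beta chains, Lamb1, the widespread one, measured 16.8, 10.8 and 14.6 FPKM in mutants and 12.1, 9.55 and 20.4 FPKM in fl/fl, and these ranges overlap. Lamb2, the beta chain of the neuromuscular junction, of muscle and of vessel walls, measured 12.7, 19.8 and 17.5 FPKM in mutants and 10.3, 6.98 and 11.5 FPKM in fl/fl, with all mutants higher. The log2 fold change of Lamb2 was 0.75 ± 0.26 (limma adjusted p = 0.226), and it was 0.48 with fl/fl 1 and fl/fl 2 left out. The ratio of Lamb2 to Lamb1 was 0.760, 1.83 and 1.20 in mutants and 0.848, 0.731 and 0.564 in fl/fl, so mutant 1 lay within the fl/fl range. Lamb3, an epithelial chain, measured 0.866 to 1.10 FPKM in mutants and 0.731 to 1.10 FPKM in fl/fl.

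Lamc1, the gamma chain that most laminins share, measured 16.2, 14.5 and 12.5 FPKM in mutants and 9.95, 8.50 and 12.9 FPKM in fl/fl (log2 fold change 0.44 ± 0.23, limma adjusted p = 0.458). Mutant 3 lay below fl/fl 3, so the groups overlapped, and with fl/fl 1 and fl/fl 2 left out the log2 fold change was 0.14. Lamc3, a gamma chain of peripheral nerve and other sites outside typical membranes, had 14, 16 and 9 fragments in mutants and 3, 4 and 10 fragments in fl/fl. Scaled to the libraries, these were 1.705, 1.62 and 1.04 FPKM in mutants and 0.365, 0.49 and 0.913 FPKM in fl/fl. Every mutant thus lay above every fl/fl library, and the difference did not pass the test.

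Of the linking genes, Nid1, which joins laminin to type IV collagen, measured 23.9, 26.1 and 26.2 FPKM in mutants and 17.9, 16.8 and 22.8 FPKM in fl/fl. All mutants were higher, and the difference did not pass the test (log2 fold change 0.40 ± 0.20, limma adjusted p = 0.423). Its exons share 143 bases with Gm48682 on the other strand. With fl/fl 1 and fl/fl 2 left out, the log2 fold change of Nid1 was 0.15. Its homologue Nid2 measured 13.4, 11.3 and 10.4 FPKM in mutants and 11.0, 9.13 and 18.4 FPKM in fl/fl. Hspg2, which encodes perlecan, a proteoglycan that cartilage matrix holds as well as basement membranes, measured 10.5, 12.1 and 13.4 FPKM in mutants and 12.9, 11.9 and 18.9 FPKM in fl/fl (log2 fold change -0.24 ± 0.24, limma adjusted p = 0.755). With fl/fl 1 and fl/fl 2 left out, the log2 fold change of Hspg2 was -0.61.

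Col18a1, the source of endostatin, measured 14.3, 9.10 and 12.8 FPKM in mutants and 6.33, 8.69 and 9.73 FPKM in fl/fl. Its relative Col15a1, of muscle and capillary membranes, was lower in every mutant, with 6.41, 5.21 and 5.55 FPKM in mutants and 7.62, 7.26 and 8.90 FPKM in fl/fl, and did not pass the test. Agrn, the proteoglycan that organises the neuromuscular junction, measured 5.44 to 7.64 FPKM in mutants and 4.78 to 7.51 FPKM in fl/fl. The 47 genes together summed to 516 to 574 FPKM in mutants and 456 to 602 FPKM in fl/fl.

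**Figure D3:**
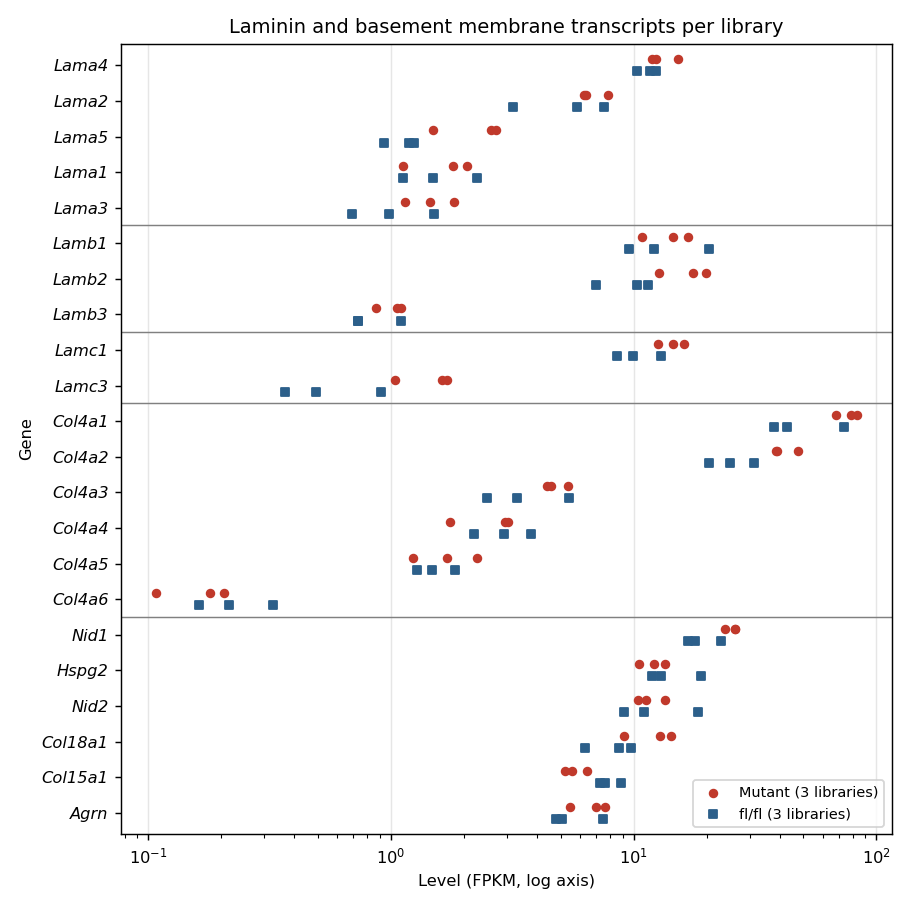
Laminin chains, type IV collagen chains and the other basement membrane genes, in blocks from top to bottom and ordered by mean within a block. The horizontal log axis gives the level in FPKM, with 3 Mutant and 3 fl/fl libraries per gene as points. Col4a1 and Col4a2 are the most abundant, and the mutant points of Col4a2, Lamb2 and Nid1 lie above all their fl/fl points.

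**Figure D4:**
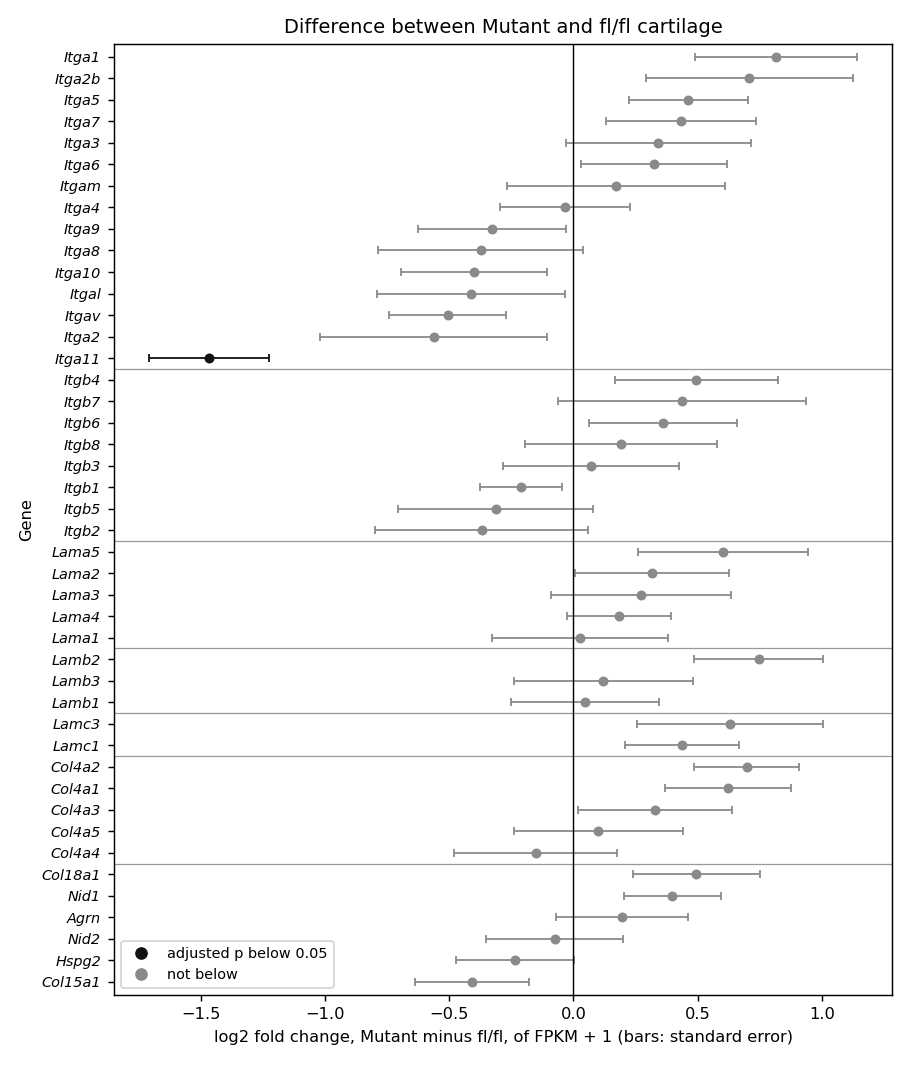
Log2 fold change of the tested integrin, laminin and basement membrane genes described by level, Mutant minus fl/fl, of FPKM + 1, with the standard error as bars; genes are grouped by family and ordered by value. Itga11 at -1.47 is the only plotted gene with an adjusted p below 0.05.

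Genes that act with these receptors and membranes were taken from lists chosen with earlier results of these data known. Of 29 tested integrin adaptor genes, 0 were called in limma, and 4 had an unadjusted p below 0.05, namely 3 higher and 1 lower. That is 13.8% of the list, where all genes gave 14.1%, so the list is at the background. The 3 with the smallest p were Tns1, Itgb1bp2 and Vcl. The tensin Tns1, which ties integrins to actin, measured 23.6, 25.7 and 23.3 FPKM in mutants and 10.3, 12.1 and 15.9 FPKM in fl/fl (log2 fold change 0.89 ± 0.21, limma adjusted p = 0.0894). Itgb1bp2, melusin, which binds the beta1 tail in striated muscle, measured 247, 181 and 96.1 FPKM in mutants and 63.5, 29.0 and 73.2 FPKM in fl/fl (log2 fold change 1.65 ± 0.41, limma adjusted p = 0.0985). Of 15 alternatives Itgb1bp2 passed only without mutant 3 (limma adjusted p = 0.0355), and over all of them its adjusted p was 0.0355 to 0.531 and its log2 fold change 1.14 to 2.02. Vcl, vinculin, measured 14.85, 17.99 and 20.4 FPKM in mutants and 27.8, 28.7 and 33.0 FPKM in fl/fl (log2 fold change -0.73 ± 0.20, limma adjusted p = 0.128), and its exons overlap those of Ap3m1 on the other strand. With fl/fl 1 and fl/fl 2 left out, the log2 fold change was 0.58 for Tns1, 1.14 for Itgb1bp2 and -0.87 for Vcl. The median log2 fold change of the adaptors was 0.11.

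Of 32 tested genes of other basement membrane components and laminin or collagen receptors, 2 rose and 1 fell (9.38% of the list). Over all genes tested, 0.775% rose and 0.465% fell. At an unadjusted limma p below 0.05 there were 12 of the 32 (37.5%), 8 higher and 4 lower, where all genes gave 14.1%. The groups did not overlap in 37.5% of the list, where all genes gave 19.2%. The list was chosen with earlier results known, so these shares are a description and no test. Bcam, a receptor for laminins that contain the alpha5 chain, measured 30.1, 18.4 and 26.1 FPKM in mutants and 3.80, 3.19 and 7.61 FPKM in fl/fl (log2 fold change 2.19 ± 0.32, limma adjusted p = 0.023). Its exons share 52 bases with Gm26600 on the other strand. Sgca, the muscle sarcoglycan that sits beside dystroglycan, measured 40.1, 36.0 and 22.0 FPKM in mutants and 7.28, 7.78 and 14.3 FPKM in fl/fl (log2 fold change 1.66 ± 0.31, limma adjusted p = 0.0462). Of the 20 skeletal muscle genes beside it 10 were called higher (50%), where all genes gave 0.775%, and the level of Sgca within them was not tested. Col6a3, a chain of the microfibrillar collagen around cells, measured 40.0, 54.5 and 66.3 FPKM in mutants and 120.8, 107.0 and 122.0 FPKM in fl/fl (log2 fold change -1.13 ± 0.21, limma adjusted p = 0.0462).

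None of these 3 calls held in every fit. Bcam missed the threshold without mutant 1, fl/fl 1 or fl/fl 2 (limma adjusted p of 0.102, 0.0877 and 0.0767). Sgca missed it without mutant 1, mutant 2, fl/fl 1 or fl/fl 2 (0.150, 0.142, 0.146 and 0.141), and Col6a3 without any library other than mutant 3 (0.0913 to 0.147). Sgca and Col6a3 also missed it with no filter, a pseudocount of 0.1 or moderation that was not robust. With median scaling only Sgca missed it (limma adjusted p = 0.0508). All 3 missed it with the replicate block and with Xist as a covariate. With fl/fl 1 and fl/fl 2 left out, the log2 fold changes were 1.56 for Bcam, 1.09 for Sgca and -1.20 for Col6a3.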

How the data were processed

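The 3 mutant and 3 fl/fl libraries were made from total RNA (miRNeasy extraction) with the SMART-Seq HT and Nextera kits, per the labels' protocols. These kits do not mark strand. The deposited values are FPKM made by the authors, 1 table per library. The headers name no unit, and FPKM was inferred from the values and from Cufflinks 2.2.1 among the tools, with TopHat2 2.0.13, Bowtie2 2.2.3, SAMtools 0.1.19 and the build mm10, per the submitters' processing notes. The annotation behind them is not named in the sources used here.

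A gene entered the test with 1 FPKM or more in 3 or more libraries. The scale was log2(FPKM + 1), and the fit was limma 3.58.1 in R 4.3.3 (limma-trend, robust moderation, group as the only term, two-sided), with Benjamini-Hochberg adjustment over all genes tested. The procedure was also run on simulated data with independent normal noise for each gene. That simulation held no difference in sex or cell mix, so it does not bear on those limits here. Fold changes are given for genes that passed, for those averaging 5 FPKM or more with an unadjusted p below 0.05, for Itgb1, Lamc1, Col4a1, Col4a2, Hspg2 and Nid1, and for the 3 smallest p of each related list. Other genes are described by level and fragments, and 1 member, which did not pass the test and is included in the counts, is not reported here. Members and lists were chosen with earlier results of these data known.

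Relative library totals were those at which low FPKM values of 3048 genes became whole multiples. Whole fragments are the smallest numbers up to 1000 that fitted all 6 libraries. Absolute totals are estimates, the median over 736 genes with a single GENCODE M21 transcript of at least 5000 bases. The alternatives were other scalings, filters, pseudocount and moderation, a replicate block, an Xist covariate and left-out libraries.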

Additional observations from a re-analysis of the deposited data

How the results depend on the processing

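The 14 genes whose log2 fold change is given (Itga11, Col4a1, Col4a2, Lamb2, Itgb1, Lamc1, Hspg2, Nid1, Bcam, Sgca, Col6a3, Tns1, Itgb1bp2 and Vcl) kept their direction under the 15 alternatives, which were not computed for single other genes. Most of this was fixed in advance. Other filters, other moderation and the replicate block leave a fold change as it was. Leaving out libraries cannot reverse a gene whose groups do not overlap, and of these genes only Col4a1, Lamc1 and Hspg2 overlapped. Counts over all genes of 145 higher and 87 lower became 239 and 172 with quantile normalization, 80 and 53 with no filter, 278 and 162 with a filter at 5 FPKM, 1 and 1 with the replicate number as a block, 1 and 1 with Xist as a covariate, and 5 and 0 with fl/fl 1 and fl/fl 2 left out. Leaving out each library in turn gave 5 to 316 higher and 2 to 103 lower. The cause was not tested. With fl/fl 1 and fl/fl 2 left out, the lone fl/fl 3 was assumed to vary like the mutants. The Xist covariate sets fl/fl 1 and fl/fl 2 apart, so its group difference also rests in effect on fl/fl 3. Among the integrin, laminin and basement membrane genes, the 1 lower call (Itga11) became 0 in limma with the replicate block (adjusted p = 0.091, and 5 genes at an unadjusted p below 0.05), with Xist as a covariate (2 genes unadjusted) and with fl/fl 1 and fl/fl 2 left out (2 genes unadjusted); without single libraries it was 0 to 1, and the higher calls were 0 to 0. Over all alternatives its adjusted p was 0.0168 to 0.288. For the related lists, 2 higher and 1 lower became 1 higher with median scaling, 4 higher with a filter at 5 FPKM, 1 and 0 with no filter, a pseudocount of 0.1 or moderation that was not robust, and 0 and 0 with the replicate block, Xist as a covariate or fl/fl 1 and fl/fl 2 left out. Without single libraries these counts were 0 to 4 and 0 to 1. The labels tie same-numbered libraries by a number only. Their deviations from the group means had correlations of 0.00628, -0.0162 and -0.00909 across genes. With 3 libraries per group these correlations cannot decide whether such libraries were prepared together. Low genes are limited by depth: Lamc3, with 39 fragments in mutants and 17 in fl/fl, had a scaled ratio of 2.34 with an exact 95% interval from 1.30 to 4.42 for counting error only, and its difference did not pass the test over libraries.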
